A study of Homo sapiens with 32 samples.

Results

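The chromatin loops of unstressed wild-type HEK293 cells (WT) were compared with those of unstressed HEK293 cells labelled eGFP-YAP, in which the transcriptional co-activator YAP is fused to a green fluorescent protein. HEK293 is a transformed line from human embryonic kidney. The data were 1 deposited loop list per line, with 15180 loops for WT (3 labelled replicates) and 18966 for eGFP-YAP (4 labelled replicates), 34146 of the 45629 loops in the 4 lists of these lines. Both groups carry the label untreated. The design text describes 1 h of serum starvation for eGFP-YAP cells and does not state it for WT, and the growth protocol speaks of HEK293T where the labels say HEK293. Neither the promoter of the fusion nor whether the line is a single clone is given in the sources used here. The lists also carry a different source name for each line. The line, the source and any difference in starvation or sequencing depth therefore cannot be told apart in any value below. Loops carry no expression values, so the cell type could not be checked against marker genes.

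A loop was called common when a loop of the other list lay on the same chromosome with both anchors, the 5 kb bins that are its ends, within 10 kb. By this rule 6107 WT loops were common, 40.2% of the list, and 9073 were found in WT only. In eGFP-YAP, 6106 loops were common, 32.2% of the list, and 12860 were found in eGFP-YAP only. The 2 numbers of common loops differ because a loop can be the match of more than 1 loop. Each line has 1 list that carries no replicate, so no difference below has a replicate check and none was tested. Intervals have a level of 95%, reflect counting error alone, and treat neighbouring loops as independent, which they are not.

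Most loops in mammalian nuclei arise when cohesin, a ring-shaped protein complex, extrudes DNA until it meets CTCF, a zinc finger protein bound to its motif. Extrusion stops best where the motif points into the loop, so strong loops usually join a motif on the plus strand at the left anchor to one on the minus strand at the right anchor, an arrangement called convergent. Other loops join promoters to enhancers or to each other. YAP is the effector of the Hippo pathway and activates genes mainly by binding TEAD transcription factors at enhancers.

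4 loops with convergent motifs show what the anchors look like. They are the highest-scoring loops with such motifs among the common loops called in identical bins, the common loops whose motifs lay in the eGFP-YAP bins alone, the WT-only loops and the eGFP-YAP-only loops. Each sequence is from hg38, printed 5′ to 3′ on the strand of the motif, with the match to the CTCF core motif (both strands searched, at most 1 mismatch) in capitals and 10 bases on each side.
TYW1B intron, left anchor, chr7:72824180-72824213, plus strand: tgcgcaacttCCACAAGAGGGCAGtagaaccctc
POM121 intron, right anchor, chr7:72915200-72915233, minus strand: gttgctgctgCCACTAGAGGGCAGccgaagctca
Outside protein-coding genes, left anchor, chr4:3984965-3984998, plus strand: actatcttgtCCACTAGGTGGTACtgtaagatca
Outside protein-coding genes, right anchor, chr4:4183046-4183079, minus strand: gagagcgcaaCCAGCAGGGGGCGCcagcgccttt
SKAP2 intron, left anchor, chr7:26681984-26682017, plus strand: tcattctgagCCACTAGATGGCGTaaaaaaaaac
HOXA cluster between genes, right anchor, chr7:27161126-27161159, minus strand: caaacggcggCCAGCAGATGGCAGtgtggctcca
CHD1L intron, left anchor, chr1:147273892-147273925, plus strand: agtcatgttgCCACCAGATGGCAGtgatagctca
Outside protein-coding genes, right anchor, chr1:147892881-147892914, minus strand: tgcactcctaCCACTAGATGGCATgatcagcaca

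The first pair belongs to a common loop of 95 kb on chromosome 7 that both lists placed in the same bins, at score percentile 99.8 of WT and 99.7 of eGFP-YAP. In its anchors 29.1% and 10.5% of 64-base words recur elsewhere in the genome. The chromosome 4 pair belongs to a common loop that the WT list placed from 3985001 to 4180000 and the eGFP-YAP list from 3980001 to 4185000, so each motif fell in the eGFP-YAP bin and outside the WT bin. The left motif ended at 3984988, only a few bases before the WT bin. Of the words in the eGFP-YAP anchors of this loop 38.2% and 5.41% recur, and in those of the next 2 loops 0%. The third pair belongs to a WT-only loop of 480 kb that ends in the HOXA cluster of body-axis transcription factors, at percentile 99.5. Both of its anchors lay within 10 kb of anchors of the eGFP-YAP control list, which paired them otherwise, and the loop itself was called in both sorbitol lists. The last pair belongs to an eGFP-YAP-only loop of 620 kb at percentile 99.8 with its left anchor in CHD1L, a gene for a chromatin remodeler. It was called with sorbitol in eGFP-YAP and not in WT.

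Common loops were the higher-scoring and shorter loops of each list. The median score percentile was 67.6 for common loops in both lists, 39.2 (38.3 to 40.1) for WT-only and 42.0 (41.3 to 42.8) for eGFP-YAP-only loops. From the lowest to the highest of 10 score classes, the common share went from 18.0% to 71.6% of WT loops and from 16.1% to 61.5% of eGFP-YAP loops. Matched loops had similar ranks in both lists: over 6107 pairs the percentiles had a Pearson correlation of 0.705 and a Spearman correlation of 0.729, a description of loops that share the genome and the caller. Of the WT common loops in the top 10% by score, 64.3% matched a loop in the eGFP-YAP top 10%. Identical bins were found for 7.04% of WT and 5.63% of eGFP-YAP loops, and a distance of 25 kb matched 56.5% and 45.4%.

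Loops found in one list were longer. The median span was 210 kb for common loops, 260 kb (255 to 265) for WT-only and 285 kb (285 to 295) for eGFP-YAP-only loops. Loops of 1 Mb or more made up 2.05% of WT common and 3.05% of WT-only loops, and 2.06% of eGFP-YAP common and 4.89% of eGFP-YAP-only loops. Under 100 kb, 47.5% of WT and 41.2% of eGFP-YAP loops were common, against 31.7% and 17.2% between 1 and 2 Mb. In every score class of either list the median span was larger for loops of that list alone, and in the top class it was 425 against 275 kb in WT and 475 against 275 kb in eGFP-YAP. The difference of 25 kb between the medians of eGFP-YAP-only and WT-only loops was 80 kb when the eGFP-YAP list was shortened to the length of the WT list and 50 kb in the upper 50% of each list.

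**Figure D1:**
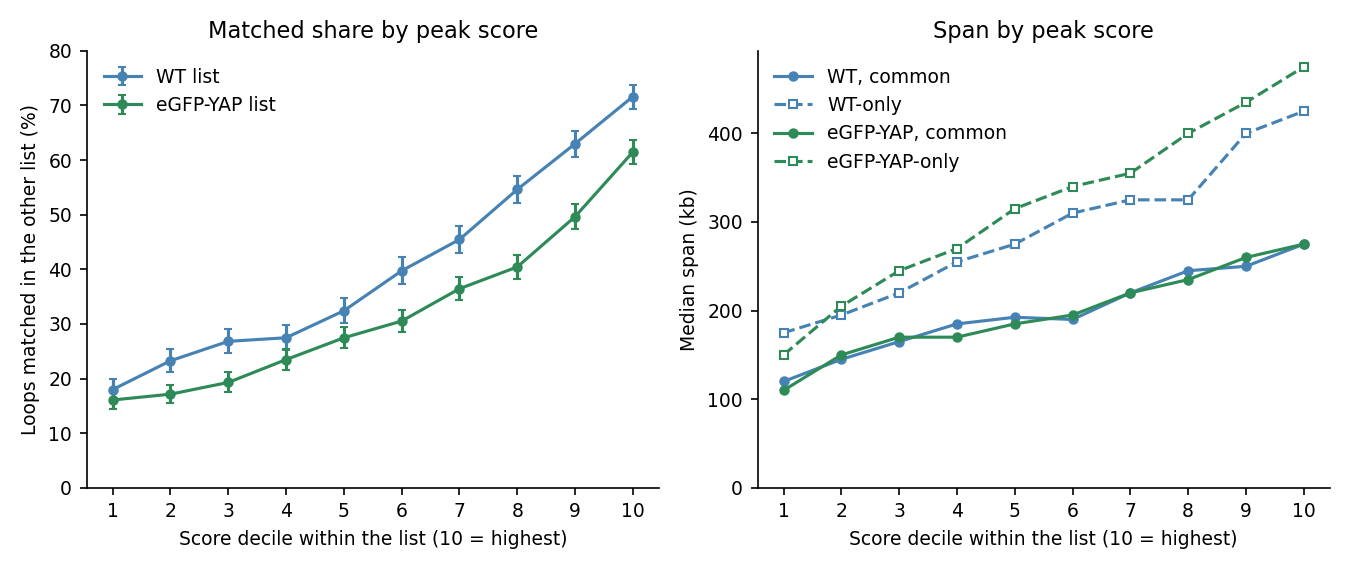
Left, percent of loops of each list that are common (points, with 95% intervals) in 10 classes of the peak score, 10 being the highest. Right, median span in kb of common loops (solid) and of loops of one list (dashed); the WT share goes from 18.0% to 71.6%, and the dashed lines lie above the solid ones in every class.

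The bins of common loops often differed by one step, and the eGFP-YAP bins held CTCF motifs more often. Identical bins at both anchors were found for 1068 of 6107 common loops, 17.5% (16.6 to 18.5), and 70.7% (69.6 to 71.9) differed by at most 5 kb at each anchor. The shifts had no preferred side: eGFP-YAP left anchors lay at lower coordinates in 29.1% and at higher coordinates in 30.4% of the pairs, and the eGFP-YAP span was larger in 36.3% and smaller in 36.1%. Where both lists used the same bin (4980 anchors), 51.5% (50.1 to 52.9) held the motif. Where the bins differed (7234 anchors), the motif was in the eGFP-YAP bin in 40.6% (39.5 to 41.8) and in the WT bin in 22.9% (21.9 to 23.9). It was in the eGFP-YAP bin alone at 33.1% of these anchors and in the WT bin alone at 15.4%. Of all common loops, 169 had convergent motifs in the eGFP-YAP bins and no motif in the WT bins, as the chromosome 4 loop printed above, and 33 the opposite.

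The share of anchors with a motif was 34.5% for common loops at WT positions and 45.0% at eGFP-YAP positions, 18.4% (17.8 to 18.9) for WT-only and 28.9% (28.3 to 29.4) for eGFP-YAP-only loops, against 8.69% of all 5 kb bins of the genome. Moved by 5 kb to either side, WT common anchors had 22.5% on both sides, eGFP-YAP common anchors 18.9% and 19.1%, WT-only anchors 15.4% and 15.3%, and eGFP-YAP-only anchors 16.9% and 17.0%. For common loops, the eGFP-YAP positions were thus higher at the listed bin and lower beside it. With 5 kb added on each side, the common anchors of both lists came close to each other, at 63.3% (62.5 to 64.2) for WT and 65.8% (65.0 to 66.6) for eGFP-YAP positions. The widened WT-only anchors remained lower than the widened eGFP-YAP-only anchors, at 41.1% against 51.7%. Without a mismatch the motif was in 3.72% of WT-only and 6.82% of eGFP-YAP-only anchors. A motif match does not show that CTCF is bound.

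**Figure D2:**
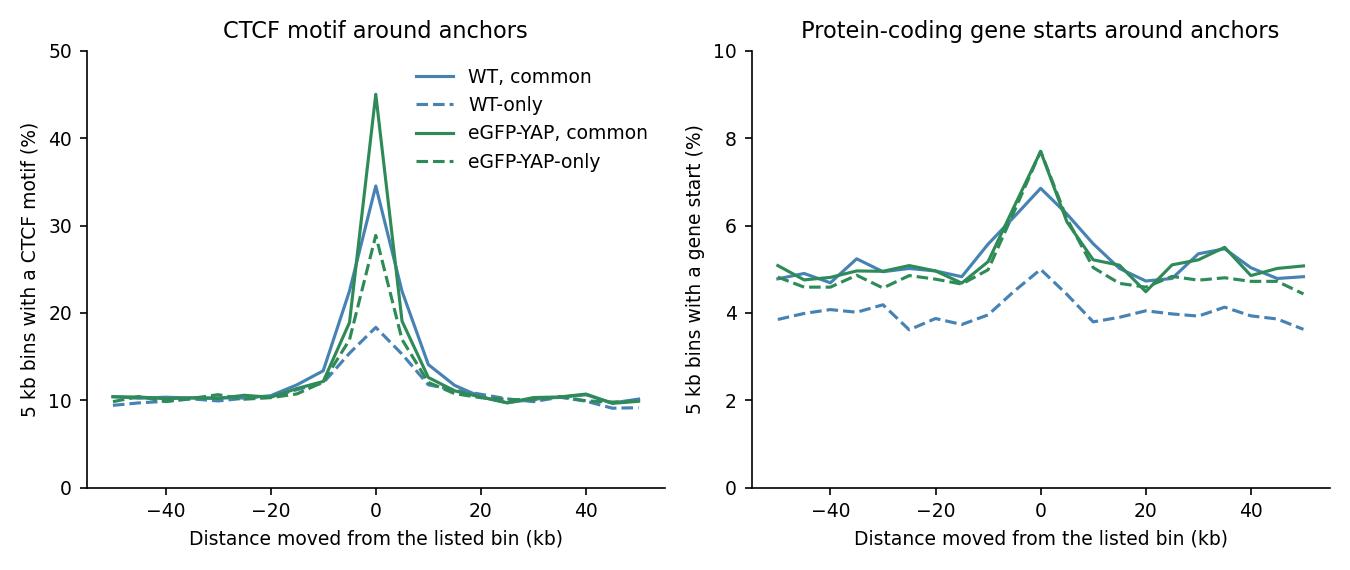
Percent of 5 kb bins with a CTCF motif (left) and with a protein-coding gene start (right) at the listed anchors (0) and at bins up to 50 kb away, for common loops (solid) and loops of one list (dashed). The motif share at 0 is 45.0% for eGFP-YAP common and 18.4% for WT-only anchors, and the WT-only line is the lowest of the 4 in the gene start panel.

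Motif orientation was scored where each anchor had motifs on 1 strand only. Common loops were convergent in 75.0% of 703 pairs at WT positions and in 81.0% of 1186 pairs at eGFP-YAP positions. Of eGFP-YAP-only loops 71.2% (68.5 to 73.7) of 1160 pairs were convergent, and of WT-only loops 50.6% (45.2 to 56.1) of 318 pairs. Independent strands would give 25%, so the loops of either list alone stood above it. In the top score class, convergence was 91.6% of 344 common and 84.3% of 121 eGFP-YAP-only pairs in eGFP-YAP, and 81.8% of 198 common and 60.9% (40.8 to 77.8) of 23 WT-only pairs in WT. The interval of the last value is wide, and it reaches that of the common pairs.

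Gene starts, the 5′ ends of protein-coding genes, were less frequent at WT-only anchors than at those of the other classes. They lay in 5.00% (4.69 to 5.33) of WT-only anchors, in 7.70% (7.38 to 8.03) of eGFP-YAP-only anchors, and in 6.85% and 7.70% of common anchors at WT and eGFP-YAP positions. Among all 5 kb bins 3.07% held one. Moved by 100 kb, WT-only anchors held one in 3.70%, eGFP-YAP-only anchors in 4.38%, and common anchors in 4.60% and 4.86%. The WT-only anchors were thus lowest away from the listed bins too. Loops with a gene start at both anchors, which join 2 promoters, made up 0.474% (0.352 to 0.638) of WT-only, 0.851% and 0.884% of common and 1.39% (1.20 to 1.61) of eGFP-YAP-only loops, 179 loops in the last class and 43 in the first. The difference of 2.70 percentage points (2.24 to 3.15) between the anchors of eGFP-YAP-only and WT-only loops was 0.803 points (0.142 to 1.45) in the upper 50% of each list by score and 5.62 points with anchors widened by 5 kb. The anchors overlapped a protein-coding gene in 53.2% of WT-only, 57.1% of eGFP-YAP-only and 56.6% and 56.5% of common cases, against 47.0% of all bins. Their median GC content was 41.9% in WT-only, 42.0% in eGFP-YAP-only and 43.2% and 43.3% in common anchors, above the 39.7% of all bins.

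The sorbitol lists of both lines, 5906 loops in WT and 5577 in eGFP-YAP after 1 h of 200 mM sorbitol, took no part in the choice of the classes. Common loops were called in them most often, 13.3% (12.4 to 14.1) in WT sorbitol and 16.1% (15.2 to 17.1) in eGFP-YAP sorbitol. WT-only loops were called in 4.14% (3.75 to 4.57) in WT sorbitol and in 2.72% (2.41 to 3.08) in eGFP-YAP sorbitol. The eGFP-YAP-only loops were called in 5.91% (5.52 to 6.33) in eGFP-YAP sorbitol and in 4.44% (4.10 to 4.81) in WT sorbitol. The WT-only share was 1.42 percentage points (0.893 to 1.95) higher in WT sorbitol, and the eGFP-YAP-only share 1.47 points (0.929 to 2.01) higher in eGFP-YAP sorbitol. Both shares of a class come from the same loops, and these intervals do not use that pairing. Of WT-only loops, 302 were called in WT sorbitol alone and 173 in eGFP-YAP sorbitol alone. Of eGFP-YAP-only loops, 552 were called in eGFP-YAP sorbitol alone and 363 in WT sorbitol alone. Common loops, which belong to both lines, were also called more often in eGFP-YAP sorbitol, 16.1% against 13.3% at their WT positions and 16.4% against 13.5% at their eGFP-YAP positions. These differences were 3.59 points for WT-only loops with matching at 25 kb and 3.08 points for eGFP-YAP-only loops in the upper 50% of the lists. In the WT sorbitol list, the shares of eGFP-YAP-only and WT-only loops had overlapping intervals.

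**Figure D3:**
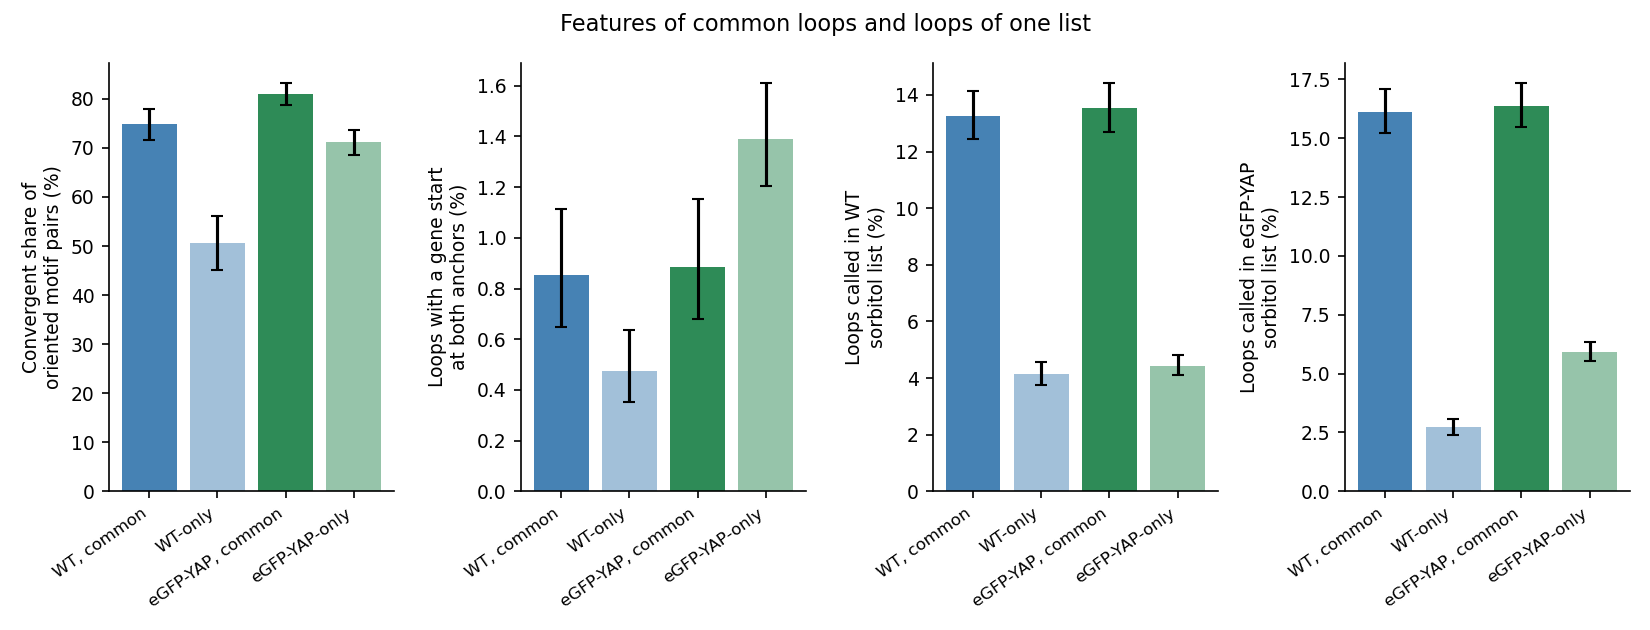
Bars give, for common and one-list loops of each list, the convergent share of oriented motif pairs, the share of loops with gene starts at both anchors, and the shares called in the WT and eGFP-YAP sorbitol lists, in percent with 95% intervals. WT-only loops are lowest in convergence (50.6%) and in loops with 2 gene starts (0.474%), and common loops are the most often called with sorbitol.

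Most loops of one list had at least 1 anchor within 10 kb of an anchor of the other list. The share that other bins of the genome would reach was not computed, so these values have no baseline. Of WT-only loops, 22.6% (21.7 to 23.5) had both anchors within 10 kb of an anchor of the eGFP-YAP list, 62.3% had 1 and 15.1% had none. Of eGFP-YAP-only loops, 28.0% (27.2 to 28.7) had both anchors near a WT anchor, 51.2% had 1 and 20.8% had none. In the upper 50% of the lists, both anchors lay near an anchor of the other list in 14.1% and 19.9%. The loops of one list lay somewhat together: among the 5 nearest loops of the same list, 63.0% were one-list loops around WT-only loops and 56.3% around common loops, and 69.0% against 65.7% in eGFP-YAP. With matching at 25 kb the difference in eGFP-YAP was 5.99 points in place of 3.35.

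Repeated sequence and gaps of the reference moved with the highest-scoring loops of one list. In the top score class of WT, 28.5% (24.5 to 33.0) of 431 WT-only loops had an anchor in which at least 10% of 64-base words occur more than once in the genome, against 7.73% (6.28 to 9.47) of 1087 common loops. In eGFP-YAP the shares were 13.8% of 731 eGFP-YAP-only and 6.43% of 1166 common loops. Within 1 Mb of unsequenced reference lay 23.4% of the WT-only and 5.34% of the common loops of that class in WT, and 10.9% and 6.26% in eGFP-YAP. Over all scores, 7.30% of WT-only, 5.21% of eGFP-YAP-only, 4.13% and 3.46% of common anchors had repeated sequence, below the 12.5% of all bins. Their part in the classes was not tested.

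The loop lists were distributed differently over chromosomes. As a ratio of the share of eGFP-YAP loops to the share of WT loops, chromosome X stood highest with 1.38 (1.19 to 1.61), 461 against 267 loops, followed by chromosome 16 with 1.35, chromosome 19 with 1.28 and chromosome 17 with 1.22. Chromosome 13 was lowest with 0.708 (0.636 to 0.788), 645 against 729 loops, and chromosome 3 had 0.824. The sorbitol lists gave 1.57 for chromosome 19, 1.52 for 17, 0.620 for 13 and 0.801 for 3, on the same side of 1. For chromosomes X and 16 the sorbitol ratios were 0.915 (0.655 to 1.28) and 1.09 (0.883 to 1.34), with intervals that include 1. The lowest sorbitol ratio was that of chromosome 8, 0.577 (0.456 to 0.726), where the control ratio was 1.03. Chromosome 21 also changed sides, from 0.879 (0.724 to 1.07) in the control lists to 1.33 (0.969 to 1.82) in the sorbitol lists, but both intervals include 1. Chromosomes 7, 14, 15 and 18 changed sides too, with sorbitol intervals that include 1.

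**Figure D4:**
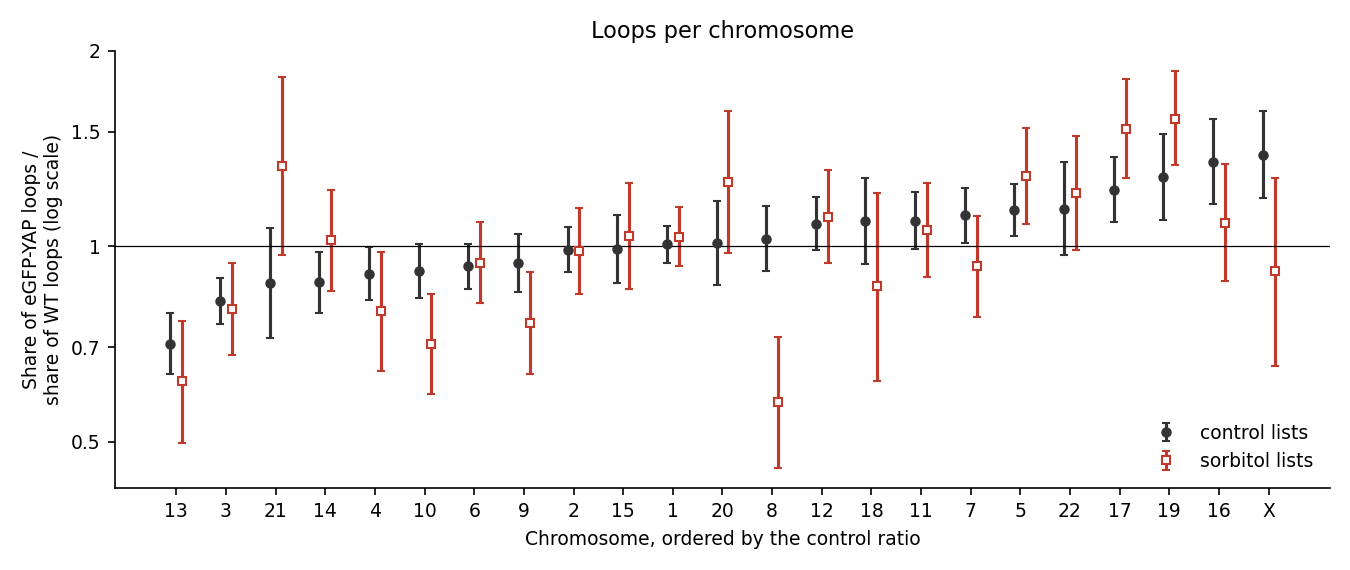
Ratio of the share of eGFP-YAP loops to the share of WT loops on each chromosome (log scale, 95% intervals), in the control lists (circles) and the sorbitol lists (squares). Chromosome 13 lies lowest at 0.708 and chromosome X highest at 1.38 in the control lists, while X is at 0.915 in the sorbitol lists.

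Regional differences in 5 Mb windows ran mainly toward more loops in eGFP-YAP. Of 559 windows with at least 10 control loops, 43 (7.69%) had a share of eGFP-YAP loops at least 2 times the share of WT loops, and 10 (1.79%) the reverse. These counts rest on the ratio alone, and the intervals of some of the 43 windows include 1. On chromosome 2 from 80 to 85 Mb, for example, 2 WT loops stood against 9, a ratio of 3.60 (0.745 to 34.3). The 43 windows held 298 WT and 1103 eGFP-YAP loops, and 916 of the eGFP-YAP loops were in that list only, 7.12% of the class. In the sorbitol lists the same windows held 159 WT and 333 eGFP-YAP loops, a ratio of shares of 2.22 (1.83 to 2.70). The 10 windows of the other direction held 237 and 120 control loops, and 106 and 89 sorbitol loops, a ratio of 0.889 (0.663 to 1.19). Both sets of windows were picked by their control counts, so those counts are a description. Over the 375 windows with enough loops, the log2 ratios of the control and sorbitol lists had a Pearson correlation of 0.54 and a Spearman correlation of 0.46, as a description of windows that share sequence, mappability and line.

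**Figure D5:**
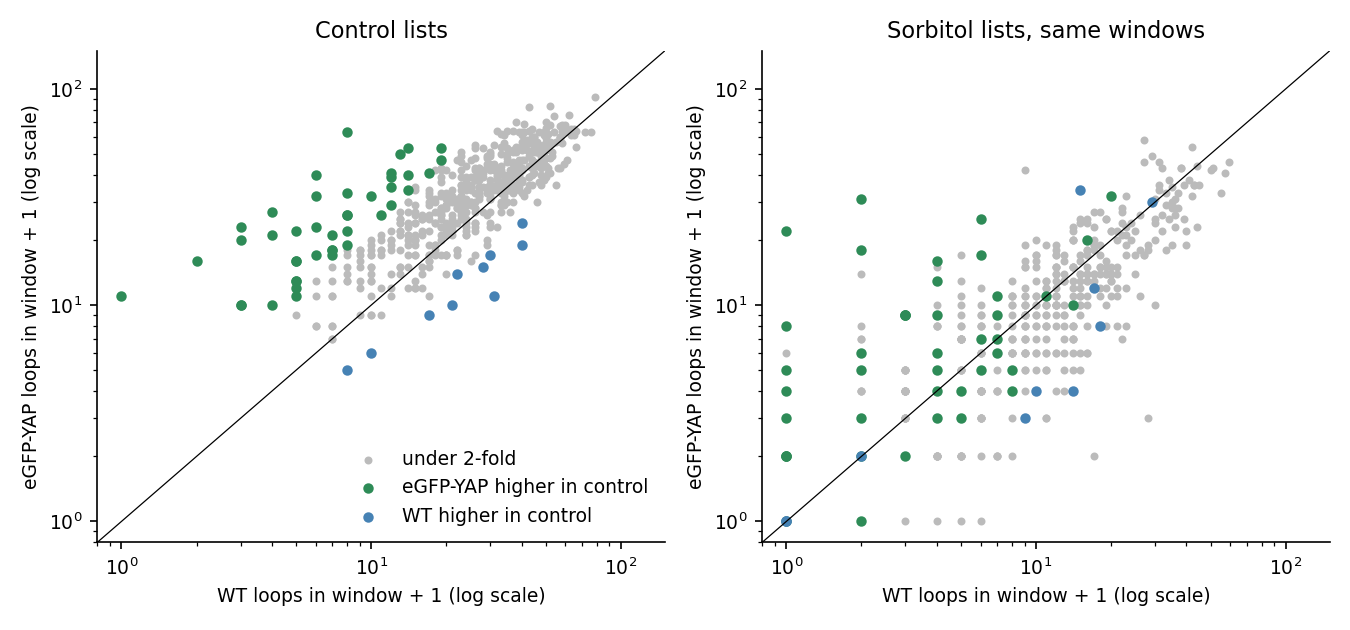
WT against eGFP-YAP loops in each of 559 windows of 5 Mb, 1 added to each count, on log axes, for the control lists (left) and the sorbitol lists (right). The 43 windows with a 2-fold higher share in eGFP-YAP control (green) hold 159 WT and 333 eGFP-YAP loops with sorbitol, and the 10 windows of the other direction (blue) hold 106 and 89.

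The windows with the highest ratios named genes of several kinds. They were picked by their control counts, so the control ratios and their intervals are a description. On chromosome 22 from 20 to 25 Mb, 7 WT loops stood against 62 in eGFP-YAP, a ratio of 7.09 (3.24 to 18.4), and the sorbitol lists held 0 and 21. Gene starts at its one-list anchors included MED15, a subunit of the Mediator complex, RTN4R, the Nogo receptor, and KLHL22, a ubiquitin ligase adaptor, and 33.3% of the window's loops had an anchor with repeated sequence. On chromosome 15 from 30 to 35 Mb, 1 WT loop stood against 15, a ratio of 12.0 (1.85 to 505), with 0 and 7 sorbitol loops, and the gene starts at one-list anchors were those of CHRM5, a muscarinic receptor, GOLGA8B and KATNBL1. On chromosome 16 from 30 to 35 Mb, 2 loops stood against 22, a ratio of 8.80 (2.16 to 77.2), with 5 and 24 sorbitol loops. 17 gene starts lay at its one-list anchors, among them SETD1A, a histone methyltransferase, VKORC1, the target of warfarin, and ORAI3, a calcium channel. On chromosome 8 from 5 to 10 Mb, 2 loops stood against 19, a ratio of 7.60 (1.83 to 67.3), and the sorbitol lists held 0 and 1. The sorbitol lists thus held more eGFP-YAP than WT loops in all 4 windows, by 1 loop in the window of chromosome 8.

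The windows with more loops in WT were less alike. Their control ratios and intervals are likewise a description of windows picked by these counts. At the start of chromosome 1 (0 to 5 Mb), 30 WT loops stood against 10 in eGFP-YAP, a WT to eGFP-YAP ratio of 3.75 (1.78 to 8.60), but the sorbitol lists held 14 and 33. Its gene starts included AGRN, which organises the neuromuscular junction, and INTS11, the endonuclease of the Integrator complex, and 27.5% of its loops had a repeated anchor. On chromosome 2 from 240 Mb to the end, 20 loops stood against 9, a ratio of 2.78 (1.21 to 6.92), with 28 and 29 sorbitol loops. On chromosome 13 from 100 to 105 Mb, 39 stood against 18, a ratio of 2.71 (1.51 to 5.03), with 16 and 11 sorbitol loops, and its gene starts were ERCC5, a DNA repair nuclease, METTL21C and TEX30. On chromosome 1 from 190 to 195 Mb, 16 stood against 8 and the sorbitol lists held 1 loop each.

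Stretches of a chromosome with no WT loop midpoint and many eGFP-YAP loops were found on several chromosomes. The longest run of eGFP-YAP loops without a WT loop was 28 loops on chromosome 22 over 2.40 Mb, with 0 WT and 12 eGFP-YAP sorbitol loops. A second stretch of that chromosome, 1.84 Mb long, held 18 eGFP-YAP loops, and 0 and 14 sorbitol loops. On chromosome X, 18 eGFP-YAP loops lay in 11 Mb without a WT loop, with 0 and 2 sorbitol loops. In the other direction, the longest run was 15 WT loops within 2.14 Mb near the end of chromosome 1, where the sorbitol lists held 10 WT and 3 eGFP-YAP loops. These stretches were picked by their counts, so the control counts are a description.

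Among the common loops with a gene start at an anchor, 3 of those with the highest mean score percentile are described here. A loop of 1265 kb on chromosome 12 joined the gene start of YARS2, the mitochondrial tyrosyl-tRNA synthetase, in chr12:32755001-32760000 to that of ALG10, a glycosyltransferase, in chr12:34020001-34025000. Both lists had it in the same bins, at percentiles 99.9 in WT and 99.8 in eGFP-YAP, and neither sorbitol list had it. A loop of 220 kb on chromosome 1 ended at the gene start of C1QC, a chain of complement component C1q, in chr1:22640001-22645000 in WT and 1 bin lower in eGFP-YAP, and was called in both sorbitol lists. A loop of 1205 kb on chromosome 3 had one anchor within BCL6, a transcriptional repressor, and the other at the gene start of TPRG1, and was called in eGFP-YAP sorbitol only. The longest common loop lay on chromosome 1 and measured 4185 kb in WT and 4190 kb in eGFP-YAP. The longest on a chromosome not yet named, 2200 kb on chromosome 20, spanned 238 kb of unsequenced reference, and 21.5% and 13.4% of the 64-base words of its anchors were repeated. It also stood at percentiles 99.9 in both lists.

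Of the WT-only loops with the highest percentiles, 3 with a gene start at an anchor are described here. On chromosome 6, a loop of 1780 kb joined the histone genes H2AC4 and H3C2 in chr6:26030001-26035000 to the histone genes H2AC14 and H3C10 in chr6:27810001-27815000, the ends of a region that holds the replication-dependent histone cluster. It stood at percentile 99.8, 1 of its anchors was near an eGFP-YAP anchor, and neither sorbitol list had it. A loop of 310 kb on the X chromosome at GAGE10, a cancer-testis antigen, spanned 180 kb of unsequenced reference. A loop of 570 kb on chromosome 13 at ATP4B, a subunit of the gastric proton pump, spanned 50 kb. The longest WT-only loop, 3685 kb on chromosome 7, joined chr7:57355001-57360000 to chr7:61040001-61045000. It spanned 100 kb of unsequenced reference and had no anchor near an eGFP-YAP anchor. None of these 4 loops was called with sorbitol in either line.

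The corresponding eGFP-YAP-only loops lay away from gaps. A loop of 460 kb on chromosome 1 ended at SELENON, a selenoprotein of the endoplasmic reticulum, in chr1:25800001-25805000, with its other anchor in TMEM50A, and was among the highest-scoring loops of the list. On the X chromosome, a loop of 890 kb joined CNGA2, a cyclic nucleotide gated channel, to the gene start of GABRQ, a subunit of GABA receptors. On chromosome 7, a loop of 700 kb started at RAMP3, a receptor activity modifying protein, in chr7:45155001-45160000, and was the only one of these 5 called with sorbitol, in eGFP-YAP. Both of its anchors were near WT anchors. On chromosome 18, a loop of 575 kb ended at the gene start of PIEZO2, a mechanically gated ion channel, and 32.2% of the words of its left anchor were repeated. The longest eGFP-YAP-only loop, 3865 kb on chromosome 6 between PACSIN1 and BTBD9, had percentile 82.2, and none of these 5 loops spanned unsequenced reference.

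A gene was linked to a loop when its start lay within 5 kb of an anchor. Of 19970 protein-coding genes, 7076 had a link in a control list: 35.8% in both lists, 21.3% in WT only and 42.9% in eGFP-YAP only, and 30.7% had a common loop. PDS5A, a regulator of cohesin release, and MRPS33, a mitochondrial ribosomal protein, had 7 eGFP-YAP loops and 0 WT loops each. ZNF843 had 7 and 0, and PRIM2, a DNA primase subunit, NETO2, an auxiliary subunit of kainate receptors, and MDGA1, a neuronal adhesion protein, had 6 and 0 each. Of the 7 PDS5A loops the best stood at percentile 86.6, and the sorbitol lists held 0 WT and 1 eGFP-YAP loop. PRIM2 had 0 WT and 3 eGFP-YAP sorbitol loops, and MRPS33, NETO2 and MDGA1 had none in either. In the other direction, FOXB1, a forkhead transcription factor, S1PR3, a sphingosine phosphate receptor, ABT1 and GAGE10 had 4 WT loops and 0 eGFP-YAP loops each. SLC22A18, a transporter of the imprinted chromosome 11 domain, and OR1M1, an olfactory receptor, had 3 and 0. FOXB1 had 2 sorbitol loops in WT and 0 in eGFP-YAP, and ABT1 had 1 in each. A link in one list can rest on a shift of the bins: 2 WT loops of SLC22A18, 1 each of GAGE10, ABT1 and OR1M1, and 1 eGFP-YAP loop of NETO2 were common loops whose partner in the other list had no link to the gene.

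The genes with the most common loops were ZFP36L2, an RNA-binding protein that destabilises mRNA, with 5 WT and 3 eGFP-YAP common loops, ATOSB with 4 and 5, DPCD with 4 and 4, PCDH9, a protocadherin, with 4 and 2, ACO1, the cytosolic aconitase, with 3 and 3, and ENSG00000271810 with 4 and 3. PCDH9 had 9 WT loops and 3 eGFP-YAP loops in all, and 5 and 2 sorbitol loops.

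Of 33 listed YAP and TEAD target genes 15 had a loop (45.5%, beside 35.4% of all protein-coding genes), with a median of 1 WT and 2 eGFP-YAP loops. Of these 15, 10 were linked in both lists (66.7%, beside 35.8% of all linked genes). Another 3 were linked in WT only (20%, beside 21.3%) and 2 in eGFP-YAP only (13.3%, beside 42.9%). With the gene start required inside the anchor 12 were linked (36.4%, beside 17.8% of all protein-coding genes). Of these, 5 were linked in both lists (41.7%, beside 20.1% of all linked genes). Another 3 were linked in WT only (25%, beside 26.5%) and 4 in eGFP-YAP only (33.3%, beside 53.4%). Over all linked genes the median was 1 in either list. CCN1, a matricellular protein and classic YAP target, had 1 WT and 2 eGFP-YAP loops, at best percentiles of 87.0 and 94.2. CCN2 had 0 and 2, the better at percentile 27.6, and IGFBP3, an insulin-like growth factor binding protein, had 0 and 2 with the better at 91.1. In the sorbitol lists IGFBP3 had 2 WT and 2 eGFP-YAP loops, and CCN2 had none in either. FJX1, the four-jointed box protein, had 4 and 5, of which 3 and 3 were common, MYOF had 1 and 2, and AMOTL2 had 2 and 3. ANKRD1, also a classic target, had none in either list.

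Of 28 genes of the Hippo pathway 10 had a loop (35.7%, beside 35.4% of all protein-coding genes). Of these, 5 were linked in both lists (50% of the linked genes, beside 35.8%). Another 3 were linked in WT only (30%, beside 21.3%) and 2 in eGFP-YAP only (20%, beside 42.9%). Under the stricter rule, a gene start inside the anchor, 7 were linked, 3 of them in both lists (42.9%, beside 20.1%). Under that rule 1 was linked in WT only (14.3%, beside 26.5%) and 3 in eGFP-YAP only (42.9%, beside 53.4%). YAP1 itself had 1 WT loop at percentile 20.4 and no eGFP-YAP loop. FAT4, an atypical cadherin upstream of the kinases, had 1 and 3 loops, at best percentiles of 94.4 and 98.8. TAOK3, STK3 and RASSF1, all kinases or kinase regulators of the pathway, had 1 and 2, 1 and 1, and 1 and 2 loops. TEAD1 had 2 WT loops, the better at percentile 27.1, and TEAD2 had 1, at percentile 6.06, with none in eGFP-YAP. LATS1, the kinase that phosphorylates YAP, had 2 eGFP-YAP loops, the better at percentile 10.3, and none in WT. TEAD2 had 2 WT and 3 eGFP-YAP sorbitol loops, TEAD1 had 1 and 0, and LATS1 had none.

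Of 21 genes of the loop machinery 8 had a loop (38.1%, beside 35.4% of all protein-coding genes). Of these, 3 were linked in both lists (37.5% of the linked genes, beside 35.8%). Another 1 was linked in WT only (12.5%, beside 21.3%) and 4 in eGFP-YAP only (50%, beside 42.9%). Under the stricter rule 7 were linked, 1 of them in both lists (14.3%, beside 20.1%). Under that rule 1 was linked in WT only (14.3%, beside 26.5%) and 5 in eGFP-YAP only (71.4%, beside 53.4%). STAG1, a cohesin subunit, had 2 and 5 loops at best percentiles of 94.5 and 99.0, and the cohesin loaders NIPBL and MAU2 had 2 and 1, and 1 and 1. PDS5A (0 and 7), PDS5B (0 and 2), ESCO1, a cohesin acetyltransferase (0 and 1), and NCAPH2, a condensin subunit (0 and 1), were linked in eGFP-YAP only. CTCF and RAD21 had no loop in either list.

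Of 40 regulators of kidney and neural development 30 had a loop (75.0%), and of 39 HOX genes 30 (76.9%), beside 35.4% of all protein-coding genes. Of the 30 regulators 18 (60%) were linked in both lists, 8 (26.7%) in WT only and 4 (13.3%) in eGFP-YAP only. Over all linked genes these shares were 35.8%, 21.3% and 42.9%. FOXC2, a forkhead factor, had 5 WT and 7 eGFP-YAP loops at best percentiles of 99.1 and 98.4, and FOXC1 had 6 and 5. NR2F2, a nuclear receptor, had 5 and 2, with best percentiles of 99.8 and 35.3. Of the 30 HOX genes 15 (50%) were linked in both lists, 6 (20%) in WT only and 9 (30%) in eGFP-YAP only. Neighbouring HOX genes can share an anchor. HOXA13 had 4 and 7 loops, HOXD13 had 3 and 7, and HOXB8 had 2 and 7. Of 43 cell adhesion and guidance genes 19 had a loop (44.2%, beside 35.4%). Of these 19, 8 (42.1%) were linked in both lists and 9 (47.4%) in eGFP-YAP only. Linked in WT only were 2 (10.5%), SLIT2 and ROBO1, a guidance ligand and its receptor. SLIT2 had 3 WT loops, the best at percentile 98.8, and 3 WT and 2 eGFP-YAP sorbitol loops. With the gene start required inside the anchor, the share of linked genes in both lists was 20.1% (18.8 to 21.5) over all genes. It was 41.7% (19.3 to 68.0) of the YAP and TEAD targets and 16.7% (5.84 to 39.2) of the HOX genes, with intervals that overlap that of all genes. For the kidney and neural regulators it was 42.1% (23.1 to 63.7), with an interval above that of all genes. With links within 5 kb, the interval was 34.7 to 36.9 over all genes, and higher for the targets (41.7 to 84.8) and the regulators (42.3 to 75.4). Under either rule the intervals of the other lists overlapped that of all genes. These differences were not tested.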

How the data were processed

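The series holds in situ Hi-C data, in which ligated DNA ends record contacts between distant DNA segments. The authors deposited 1 loop list for each line and condition, and the column headers are those of the SIP caller, an image-based loop finder for contact maps. Per the file headers each loop has the coordinates of 2 anchors, a peak score, a contact value (a score on an unstated scale, not used) and a deposited probability of enrichment, a fraction of at least 0.900 in every list. The deposited score was used only to rank loops within a list. Caller settings, map normalisation, aligner, depth and the replicates behind each list are not given in the sources used here, so depth is known only through the list lengths. The submitters' processing notes name hg38. A copy of hg38 with GENCODE release 44 was used, since no anchor ran past its chromosome ends. In all 0 columns were without a group.

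Anchors were sorted and lists matched with a nearest-neighbour search (Python 3.11.15, scipy 1.17.1, numpy 2.4.6, pandas 2.3.3). Intervals of shares are Wilson's, those of medians rest on order statistics, differences combine both, and ratios of shares have exact intervals. Windows were assigned by loop midpoint. Where 1 list had no loop in a window, a floor of 3 loops took its place. Repeated 64-base words were sampled at 1 in 32. Only bases given as N in the reference counted as unsequenced. The matching and counting steps were tested on simulated lists.

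The members and gene lists were chosen with earlier results of these data known. The measures of repeats, gaps, displaced bins, empty stretches and the sorbitol counts per window, and the choice of the printed sequences, were added after seeing the data. Named loops were, in each class, the 4 with the highest score percentile and a gene start at an anchor, plus the longest on a chromosome not yet named, so at most 1 per chromosome. Named windows were the 4 with the highest and the 4 with the lowest ratio, at most 2 per chromosome. Named genes were the 6 with the most loops in one list and none in the other, and the 6 with the most common loops, and other genes come from 6 lists. Chromosome 8 was left out of the naming of loops and genes, and 1 common loop and 1 WT-only loop that the rules selected are not reported here. The alternatives were other matching distances, shortened or merged lists, the upper 50% by score, loops without gaps, other anchor widths, motif and gene settings, neighbour numbers and window rules. The time-course, HCT116 and eGFP-YAPdTAD samples (18 of 32) were not analysed here.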

Additional observations from a re-analysis of the deposited data

Results flagged for a closer look

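The 2 lists differed in the sign of the gene measures when common loops were set against loops of that list alone, in 3 of 12 measures compared. For the share of anchors with a gene start, common minus one-list loops was 1.85 percentage points in WT and -0.000942 in eGFP-YAP, where the interval, -0.568 to 0.581, includes 0. For loops with a gene start at both anchors it was 0.378 points (0.118 to 0.668) in WT and -0.508 points (-0.807 to -0.180) in eGFP-YAP. For anchors that overlap a protein-coding gene it was 3.34 points in WT and -0.638 points in eGFP-YAP, with an interval of -1.71 to 0.428 that includes 0. With 1 list per line, these differences were not tested.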

How the results depend on the processing

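Of 62 recomputed values, gene list shares aside, 24 stayed within the interval (counts: within 1.5 times) and 38 moved. No difference between groups changed sign, and shares and counts cannot. For the WT and eGFP-YAP shares of common loops, identical bins gave 7.04% and 5.63%, matching at 25 kb 56.5% and 45.4%, the shortened eGFP-YAP list 36.1% and 36.1%, and the upper 50% by score 46.2% and 36.9%. Without the windows that differ 2-fold, an alternative added after seeing the data, the eGFP-YAP share was 33.1%. No pair of loops of a list was close enough to be merged. Identical bins made up 21.5% of common loops in the upper 50%. The difference in median span between eGFP-YAP-only and WT-only loops was 80 kb with the shortened list and 50 kb in the upper 50%. The median percentile of common loops lay above that of one-list loops by 25.5 (WT) and 19.999 (eGFP-YAP) at 25 kb, and by 33.1 and 22.9 with the shortened list. Both anchors lay near an anchor of the other list in 31.8% of WT-only and 37.6% of eGFP-YAP-only loops at 25 kb. The shares were 17.0% and 31.4% with the shortened list, and 14.1% and 19.9% in the upper 50%. The gene start difference was 1.88 points with the shortened list, 0.803 in the upper 50% and 5.62 with widened anchors. The motif difference was 12.7 points with the shortened list, 14.7 in the upper 50% and 3.10 without a mismatch. The neighbour difference was 5.05 points in WT with the shortened list and 5.82 with 10 neighbours, and in eGFP-YAP 5.99 at 25 kb, 4.24 with the shortened list and 4.41 in the upper 50%. Windows of 2 Mb gave 93 and 38 windows past 2-fold. The excess of calls in the line's own sorbitol list was 3.59 points for WT-only loops at 25 kb, and 2.11 (shortened list) and 3.08 points (upper 50%) for eGFP-YAP-only loops. The cause of these moves was not tested.

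No paired analysis was possible because each line has 1 list, which carries no replicate, although the labels give both lines replicates 1 to 3. Depth is unknown, so the longer eGFP-YAP list cannot be told apart from deeper sequencing. A list shortened by score is not a list from fewer reads.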
